A study of Mus musculus with 4 samples.

Results

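The 37 mitosis genes described here encode the cyclins, kinases, kinetochore proteins, spindle motors and ubiquitin ligase parts that carry a cell through chromosome segregation and division. They were taken by symbol from a list of genes with known roles in mitosis, and no rule on their levels was used. Each symbol matched 1 row of the feature table, and all 37 had counts, among 20458 genes with counts that were used. Spatial gene expression was recorded by a probe-based assay on formalin-fixed, paraffin-embedded sections of mouse brain, at day 11, from animals inoculated with a tumour that was then resected. The design text names a hydrogel-treated and a non-treated condition, and the labels TREAT and Vehicle are read here as these. The series title calls the hydrogel drugless and the tumour a glioblastoma. The groups held 2 capture areas each, named TREAT 1+4 and TREAT 2+3, and Vehicle 1+4 and Vehicle 2+3. The sources used here do not give the tumour line, the strain or the age of the animals. The design text counts 4 animals, while the 4 areas carried 8 pieces of tissue, so the areas are the unit of comparison and p-values measure the spread between these areas. Where 2 values of a group are given below, area 1+4 comes first and area 2+3 second.

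Spots over tissue numbered 3352 and 3013 in TREAT, against 3193 and 3488 in Vehicle, and the median spot held 14986.5 and 12248 UMIs in TREAT, against 7310 and 8377 UMIs in Vehicle. All 4 areas shared the same 4980 spot barcodes, which are positions on the array and not cells. Spots of at least 500 UMIs were clustered with 428 cell cycle and histone genes left out, the mitosis genes among them, so that these genes did not decide which spots were called tumour. The tumour class was made of clusters 0 and 7, in each of which 27 of 36 tumour markers exceeded 2 times their median over all clusters. Among clusters left out, cluster 4 had 32, cluster 14 had 29 and cluster 17 had 25 such markers. In cluster 4, neuron and oligodendrocyte markers summed to more than tumour markers (17176 against 10142 CPM), and in cluster 14 markers of another class led. Cluster 17 was left out for the same reason as cluster 4 (17863 against 4790 CPM). Cluster 4 held 232 spots in TREAT 1+4, where the tumour class held 177. Cluster 0, led by Lgals7, Gzmc and Col2a1, held 1 and 5 TREAT spots and 905 and 1241 Vehicle spots, and cluster 7, led by Gbp2b, Btbd35f1 and Col9a1, held 176 and 553 TREAT spots and 1 and 15 Vehicle spots. A comparison of TREAT with Vehicle in tumour spots is therefore largely one of cluster 7 with cluster 0. Tumour spots made up 5.29% and 18.5% of kept TREAT spots, against 28.7% and 36.0% of kept Vehicle spots. In TREAT 1+4, 3 tumour spots lay on the left piece of tissue and 174 on the right piece, and by a ratio of tumour to neuron and oligodendrocyte markers 57 spots of that left piece were tumour.

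A dividing cell enters mitosis when the kinase CDK1 is activated by cyclins A and B and by CDC25 phosphatases. Aurora kinases and PLK1 then organise the spindle, kinetochores attach chromosomes to microtubules, and the spindle checkpoint (BUB1, BUB1B, MAD2L1, TTK) holds back the anaphase-promoting complex until all are attached. CDC20 and the ubiquitin-conjugating enzyme UBE2C then let that complex mark securin and the cyclins for destruction, and RACGAP1, PRC1, ECT2 and anillin build the division furrow. Most of these genes are transcribed late in the cell cycle. The MuvB complex, with B-MYB or FOXM1, is known to act on them through a promoter element called the cell cycle genes homology region (CHR), often beside CCAAT boxes bound by NF-Y. In adult brain most neurons and glia do not divide, whereas glioblastomas are rich in mitotic cells.

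Promoter windows from RefSeq (build GRCm38.p6, 250 bases before to 50 bases after the start of transcription) were matched by symbol for 32 of the 37 genes. They are shown because the CHR and CCAAT letters are what most of these genes share in sequence. The CHR letters TTTGAA (on the other strand they read TTCAAA) stood in the windows of 24 of 32 mitosis genes (75%), against 20.2% of all 27025 symbols in the table. In 21 of the 32 genes they lay within 60 bases of the start, against 6.36% of all symbols. The box CCAAT (on the other strand it reads ATTGG) was also held by 24 of 32 (75%), against 41.1% of all symbols, and 21 of 32 held both motifs (65.6%, against 8.97%). Of the other CHR spellings searched, TTTAAA stood in 10 windows (31.2%, against 14.9% of all symbols), TTCGAA in 3 (9.38%, against 1.80%) and CTTGAA in 4 (12.5%, against 14.8%). The windows of the mitosis genes had a median of 59.0% G and C, against 52.8% for all symbols. TTTGAA was held by 6 of the 7 genes with a window that were lower in TREAT tumour spots in the first comparison below, and by 18 of the other 25. The windows printed belong to the 3 genes with the smallest p in the tumour comparison (Ube2c, Cenpa, Cdk1) and the 3 with the largest (Cenpe, Ect2, Aspm), among those with a window. Capitals mark the CCAAT box and the 4 CHR spellings named above, on either strand. Each window spans the promoter and the first transcribed bases of its gene and is written on the gene's own strand: Ube2c at chr2:164769679-164769978 (+), Cenpa at chr5:30666636-30666935 (+), Cdk1 at chr10:69352863-69353162 (-), Cenpe at chr3:135212313-135212612 (+), Ect2 at chr3:27153829-27154128 (-, the first of 2 windows listed) and Aspm at chr1:139454523-139454822 (+).
Ube2c: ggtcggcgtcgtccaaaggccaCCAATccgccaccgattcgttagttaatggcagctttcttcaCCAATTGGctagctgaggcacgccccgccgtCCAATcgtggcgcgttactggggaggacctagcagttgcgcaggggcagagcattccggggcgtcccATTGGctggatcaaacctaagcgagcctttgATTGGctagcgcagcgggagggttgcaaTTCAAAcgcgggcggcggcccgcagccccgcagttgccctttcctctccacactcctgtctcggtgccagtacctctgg
Cenpa: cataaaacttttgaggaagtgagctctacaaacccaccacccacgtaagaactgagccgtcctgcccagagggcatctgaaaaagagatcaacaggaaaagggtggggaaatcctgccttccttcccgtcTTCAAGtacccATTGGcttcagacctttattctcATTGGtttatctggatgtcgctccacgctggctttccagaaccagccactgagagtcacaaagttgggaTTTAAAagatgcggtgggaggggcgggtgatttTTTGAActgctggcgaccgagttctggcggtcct
Cdk1: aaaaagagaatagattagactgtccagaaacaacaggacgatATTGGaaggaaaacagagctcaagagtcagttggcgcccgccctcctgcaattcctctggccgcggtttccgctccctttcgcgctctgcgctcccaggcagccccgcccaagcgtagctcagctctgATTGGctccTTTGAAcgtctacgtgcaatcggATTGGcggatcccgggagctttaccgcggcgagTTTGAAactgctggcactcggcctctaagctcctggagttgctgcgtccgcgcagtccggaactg
Cenpe: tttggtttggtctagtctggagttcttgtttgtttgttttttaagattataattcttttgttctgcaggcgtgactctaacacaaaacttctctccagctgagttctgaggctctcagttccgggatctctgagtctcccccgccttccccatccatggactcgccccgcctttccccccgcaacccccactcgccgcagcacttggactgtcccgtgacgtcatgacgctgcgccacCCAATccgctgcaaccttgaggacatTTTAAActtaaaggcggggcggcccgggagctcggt
Ect2: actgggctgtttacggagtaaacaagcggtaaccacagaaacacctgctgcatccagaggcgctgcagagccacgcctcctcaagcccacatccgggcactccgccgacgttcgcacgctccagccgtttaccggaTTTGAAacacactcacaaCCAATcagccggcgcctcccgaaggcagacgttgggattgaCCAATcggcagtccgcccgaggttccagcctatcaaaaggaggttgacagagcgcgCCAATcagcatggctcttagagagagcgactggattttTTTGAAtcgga
Aspm: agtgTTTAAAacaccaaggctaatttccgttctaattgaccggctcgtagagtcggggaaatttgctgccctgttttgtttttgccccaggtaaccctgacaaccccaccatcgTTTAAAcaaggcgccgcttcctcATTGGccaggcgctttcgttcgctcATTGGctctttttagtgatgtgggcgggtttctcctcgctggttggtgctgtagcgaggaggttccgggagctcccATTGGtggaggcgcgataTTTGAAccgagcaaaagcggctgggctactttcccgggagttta
Among these windows, Cdk1 carried TTTGAA 71 and 15 bases before the start, and Ube2c carried it 29 bases before the start on the other strand, counting to the leftmost base of the match. Ube2c had 6 CCAAT matches, of which 2, on opposite strands, overlap. Cenpe held no TTTGAA, and its TTTAAA began at base 15 after the start. A match describes the letters only.

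The mitosis genes marked out the tumour on the sections. Their summed level, in UMIs scaled to the total of the spots summed (counts per 1000000 UMIs, CPM), was 4538 and 3946 CPM in tumour spots of TREAT and 4045 and 3889 CPM in tumour spots of Vehicle. In brain spots, defined as spots outside the tumour class and more than 2 grid steps from it, the sum was 234 and 261 CPM in TREAT and 215 and 476 CPM in Vehicle. Each of the 37 genes was higher in all 4 tumour sums than in any of the 4 brain sums, which held for 26.6% of all genes. In every area 14 of the 37 were at least 10 times higher in tumour than in brain, against 0.792% of all genes. This is a description without a test, since the spot classes were made from the same spots. Kif20a, a kinesin of the central spindle, had the highest ratio of the 37 in the least different area (70.7-fold and 46.5-fold in TREAT, 46.6-fold and 16.0-fold in Vehicle). Anln (3.43-fold and 2.71-fold in TREAT, 2.66-fold and 2.11-fold in Vehicle) and Pttg1 (2.45-fold and 2.64-fold in TREAT, 2.60-fold and 2.15-fold in Vehicle) had the smallest ratios. Vehicle 2+3 gave the lowest ratio for all 37 genes. In a spot that holds several cells, fewer dividing cells and less mitotic RNA per cell cannot be told apart.

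**Figure D1:**
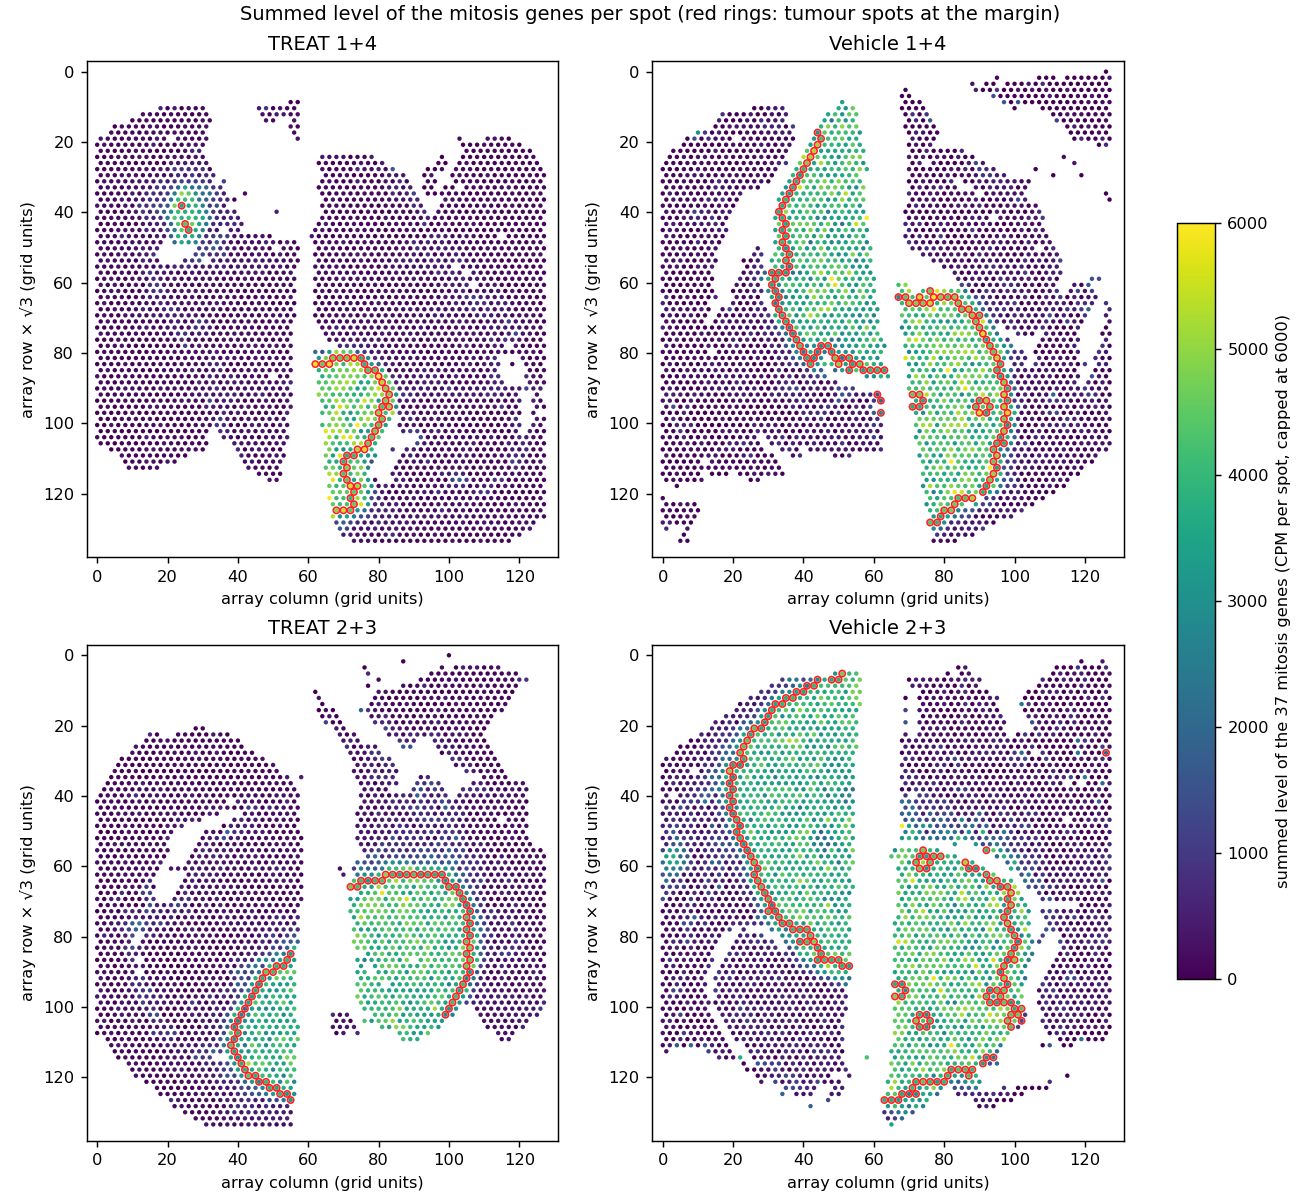
Summed CPM of the 37 mitosis genes in each kept spot, with TREAT areas on the left and Vehicle areas on the right, axes in array grid units, and red rings around tumour spots that touch another class. High spots fill the ringed regions of each area, and the left piece of TREAT 1+4 has a small patch of high spots of which 3 are in the tumour class.

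Within the tumour the level was even from edge to centre and then dropped over a few grid steps outside the tumour class. Spots at steps 1 and 2 belong neither to the tumour class nor to the brain spots defined above. At step 1 outside the tumour the sum was 4007 and 3239 CPM in TREAT and 3658 and 3378 CPM in Vehicle. At step 3 it was 1325 and 797 CPM in TREAT and 433 and 1260 CPM in Vehicle, so the 2 areas of each group lay far apart there. From step 8 outward, TREAT 1+4, TREAT 2+3 and Vehicle 1+4 lay between 170 and 245 CPM. Vehicle 2+3 stayed between 352 and 544 CPM from step 8 to step 13. Single tumour spots varied by a coefficient of variation of 14.4% and 13.4% in TREAT and 17.1% and 15.2% in Vehicle, where counting error alone would give 8.33% and 8.51% in TREAT and 11.2% in both Vehicle areas. No tumour spot was without a UMI from these genes. Spots of cluster 14, led by immunoglobulin and collagen genes and left out of the tumour class because markers of other cells led it, had 3666 CPM in TREAT 1+4 (49 spots), 1445 CPM in TREAT 2+3 (1 spot), and 3868 and 3376 CPM in Vehicle. The border cluster 4, led by Ccn5 and Klk6 with the reactive glia genes Serpina3n and Pdpn, had 2043 and 2339 CPM in TREAT and 1696 and 1874 CPM in Vehicle.

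**Figure D2:**
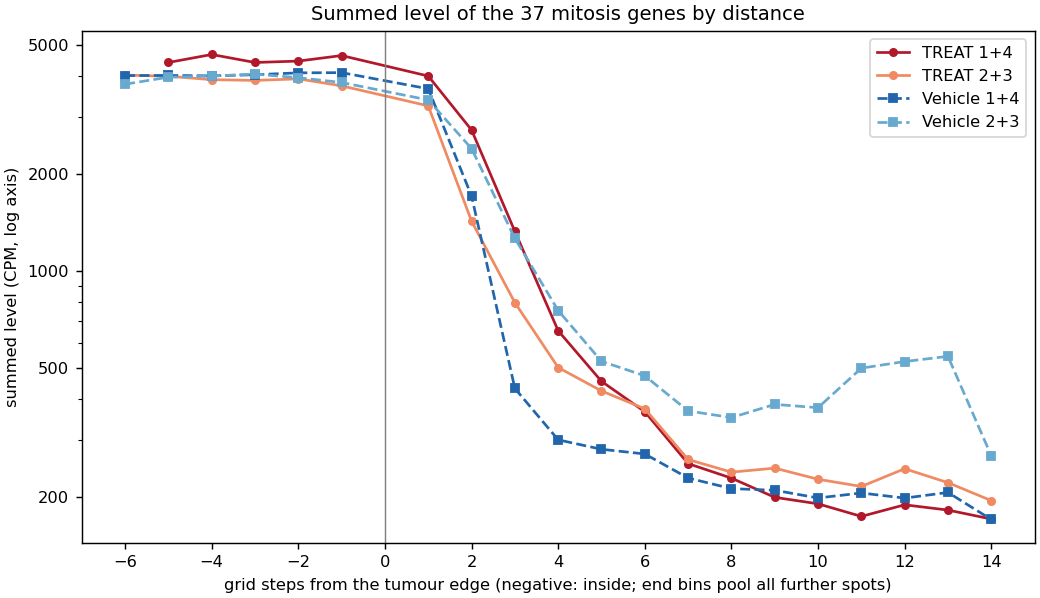
Summed CPM of the 37 mitosis genes (log axis) against grid steps from the tumour edge, negative inside the tumour, 1 line for each capture area, bins of at least 20 spots. The lines are flat inside the tumour, fall between steps 1 and 7 outside it, and Vehicle 2+3 stays above the other areas from step 4 on.

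Far from the tumour, 2 mitosis genes kept a level that the others did not. In 4469 brain spots at least 10 steps from any spot with a tumour marker ratio above the threshold, the pooled level of 35 genes was between 0.617% (Cdc25c) and 7.20% (Racgap1) of their tumour level. Pttg1, which encodes securin, the inhibitor of the protease that separates sister chromatids, stood at 38.6%. Its far level was 56.0 and 57.6 CPM in TREAT and 56.4 and 60.7 CPM in Vehicle, close together in all 4 areas. Anln, the actin-binding anillin of the cleavage furrow, stood at 33.3%, with 24.4 and 12.8 CPM in TREAT and 21.1 and 38.4 CPM in Vehicle. Together Anln and Pttg1 gave 43.4% of the UMIs of mitosis genes in these far spots, against 5.40% in tumour spots. Anln was unevenly spread: in cluster 5, led by ciliary genes (Ccdc153, Tmem212) with Mbp and Mobp, genes of myelin, among its leading genes, it reached 123 and 79.9 CPM in TREAT and 102 and 150 CPM in Vehicle. In the other far spots it was at 14.96 and 9.02 CPM in TREAT and 16.5 and 33.3 CPM in Vehicle. Pttg1 was less uneven over the same split, at 90.1 and 103 CPM in TREAT and 71.0 and 70.0 CPM in Vehicle within cluster 5, and at 52.7 and 55.0 CPM in TREAT and 55.6 and 60.3 CPM in Vehicle outside it. Mki67, which encodes the Ki-67 protein that coats mitotic chromosomes, was at 11.9 and 23.1 CPM in TREAT and 30.9 and 15.004 CPM in Vehicle within cluster 5, against 1.72 and 2.61 CPM in TREAT and 2.46 and 11.1 CPM in Vehicle elsewhere.

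**Figure D3:**
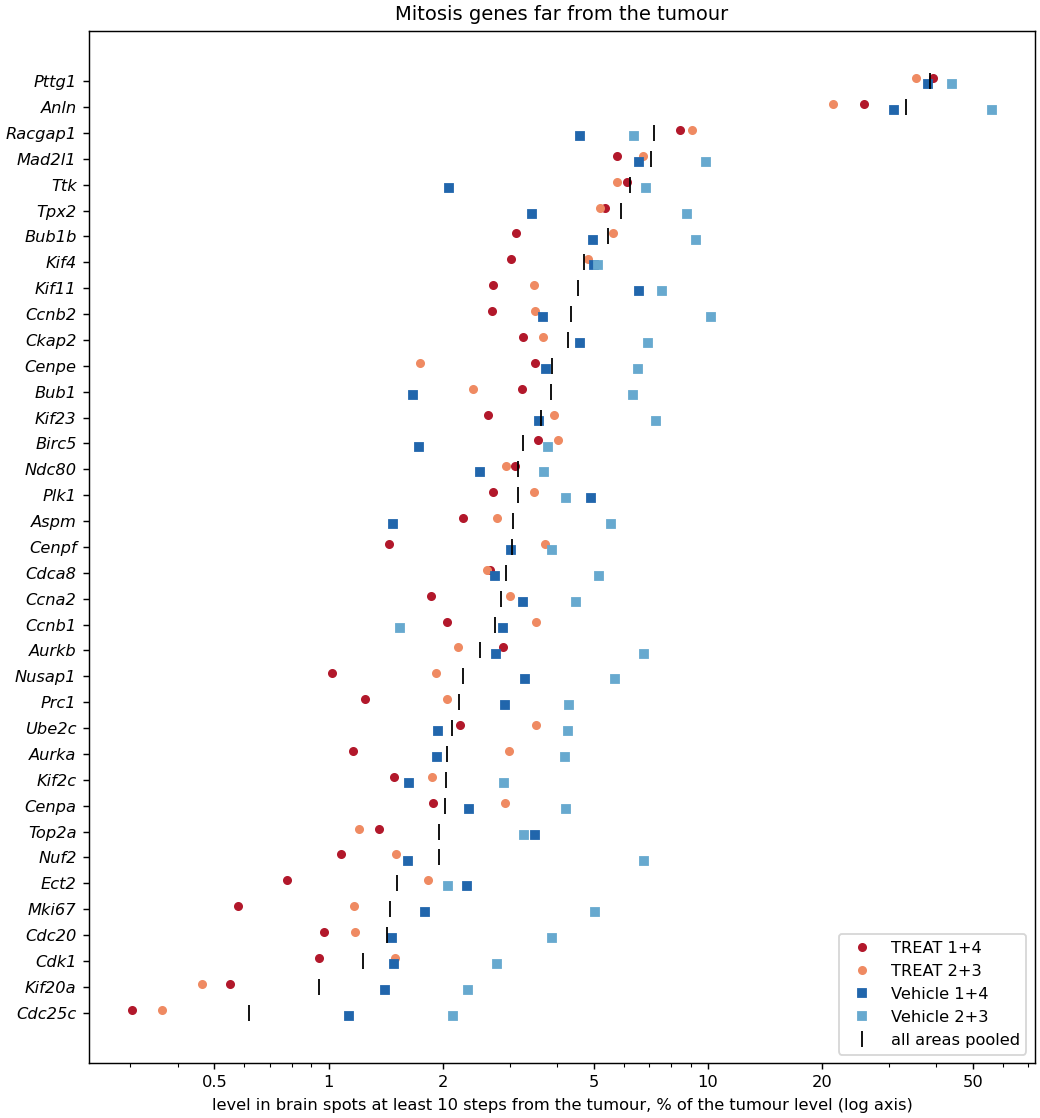
Level of each mitosis gene in brain spots at least 10 steps from the tumour as a percentage of its level in tumour spots (log axis), with points for TREAT and Vehicle capture areas and a bar for all areas pooled. Anln and Pttg1 lie at 21.3% or more in every area, and the pooled values of the other 35 genes lie at 7.20% or less.

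Treatment was next compared within tumour spots, where the question is whether the tumour that remained or regrew under the hydrogel held mitotic transcripts at another level. The summed level overlapped between the groups, with means of 4242 ± 418 CPM in TREAT and 3967 ± 110 CPM in Vehicle (SD, n = 2 each). Single genes moved in both directions: the CPM of 21 genes was higher in both TREAT areas than in either Vehicle area, that of 7 was lower in both, and that of 9 overlapped. Over all genes 61.4% lay above and 14.4% below in this way, and over genes of at least 10 CPM 41.8% above and 27.5% below. Ube2c and Cenpa were the genes called lower under each of the 18 settings tried, scaling included.

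How many passed a test depended on the scaling. With TMM over all 19658 genes tested, edgeR's quasi-likelihood test called 8 of 37 mitosis genes lower (21.6%) and 0 higher, where 20.1% of all genes were called lower and 12.5% higher. The share called lower was thus near that of all genes. At an unadjusted p under 0.05 in that test, 12 were lower and 0 higher, where 4899 of all 19658 genes were lower and 4256 higher. With TMM over the 9831 genes of at least 10 CPM, 2 were lower (5.41%, against 14.1% of all genes) and 8 higher (21.6%, against 11.3%). With library totals, 3 were lower (8.11%, against 7.14%) and 14 higher (37.8%, against 39.7%). DESeq2 called the same 8 lower and 0 higher, against 23.9% and 3.07% of all genes. Single areas mattered too: without Vehicle 1+4 the median log2 change of the mitosis genes was -0.10 (0.07 for all genes tested). Without TREAT 2+3 it was 0.02 (0.02 for all genes), without TREAT 1+4 -0.23 (0.10) and without Vehicle 2+3 -0.22 (0.05). Of all calls, 38.3% were higher under TMM over all genes, 44.6% over genes of at least 10 CPM, 84.8% under library totals and 11.4% under DESeq2. The median log2 change of the mitosis genes was -0.18 under TMM, 0.19 over genes of at least 10 CPM and 0.29 under library totals, beside medians of 0.04, 0.01 and 0.51 for all genes tested.

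Depth and the weakest genes moved with the groups. The median tumour spot held 32856 and 36509.5 UMIs in TREAT, against 21346.5 and 22450 UMIs in Vehicle. The 9160 genes with counts and a mean of up to 5 CPM, none of them a mitosis gene, took 1.95% and 2.11% of tumour UMIs in TREAT, against 0.870% and 1.09% in Vehicle. Their part in the scaling was not tested. After each tumour spot was thinned to 5000 UMIs, 3 mitosis genes were lower (Cdk1, Cenpa and Ube2c) and 2 higher (Mki67 and Nusap1), against 10.7% and 6.63% of all genes. Each change below is on the log2 scale, TREAT over Vehicle, with TMM over all genes, and the value with genes of at least 10 CPM is added where it changes the call.

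**Figure D4:**
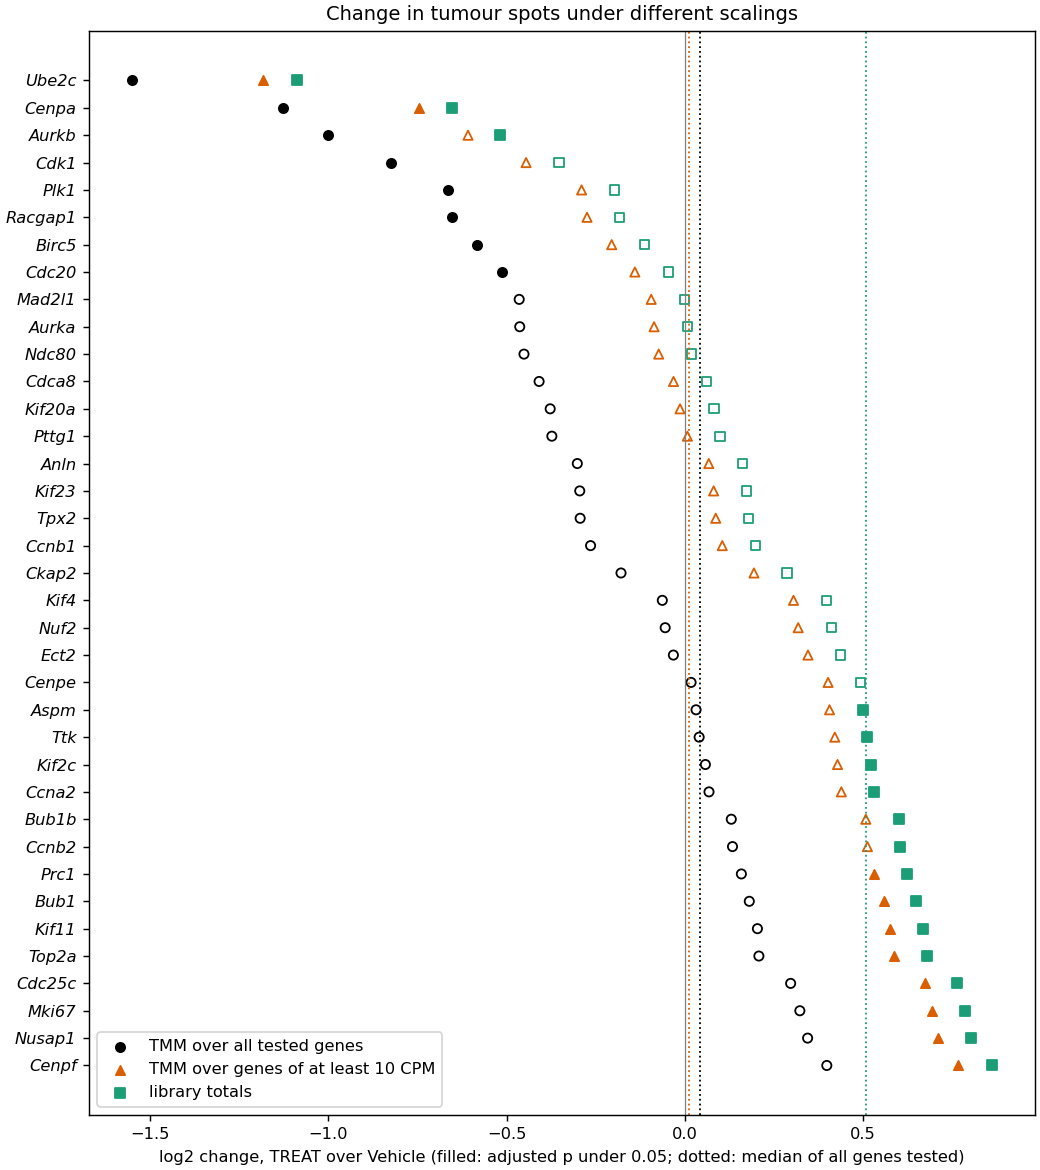
Log2 change of each mitosis gene in tumour spots, TREAT over Vehicle, under TMM over all genes, TMM over genes of at least 10 CPM and library totals, with filled symbols at an adjusted p under 0.05 and dotted lines at the median of all genes. The order of the genes is nearly the same under each scaling, while the whole set shifts, and Ube2c and Cenpa are filled on the low side in all 3.

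The cyclins and their kinase did not move together. Cdk1, the kinase of mitotic entry and the member with the most tumour UMIs (37042), was at 434 and 411 CPM in TREAT tumour and 570 and 510 CPM in Vehicle tumour, with no overlap. Its log2 change was -0.82 (SE 0.18, adjusted p = 0.00265), and it was not called over genes of at least 10 CPM (-0.45, adjusted p = 0.0657). Its partner cyclin A, Ccna2, ran the other way at 220 and 215 CPM in TREAT and 137.98 and 163 CPM in Vehicle, without passing the test (0.07, SE 0.17, adjusted p = 0.772). Cdc25c, the phosphatase that removes inhibitory phosphates from CDK1, was at 50.5 and 52.1 CPM in TREAT and 29.4 and 31.0 CPM in Vehicle. The groups were well apart for Cdc25c, and its change was 0.30 (SE 0.18, adjusted p = 0.206), or 0.67 over genes of at least 10 CPM, where it passed (adjusted p = 0.0157). Ccnb2, a cyclin B, was at 123 and 100.4 CPM in TREAT and 81.3 and 65.1 CPM in Vehicle, a change of 0.13 (adjusted p = 0.594). Ccnb1, the other cyclin B, overlapped between the groups.

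The mitotic kinases and the chromosomal passenger complex lay on the lower side, 5 of 5 below 0 and 3 of them called under TMM over all genes, and 3 of 5 below 0 with library totals. Aurkb, the catalytic kinase of the passenger complex, was at 29.3 and 43.3 CPM in TREAT and 60.3 and 45.5 CPM in Vehicle, with a change of -0.9998 (SE 0.22, adjusted p = 0.00201). TREAT 2+3 and Vehicle 2+3 differed little for Aurkb, and over genes of at least 10 CPM it was not called (-0.61, adjusted p = 0.0621). Plk1, the polo-like kinase of spindle assembly, was at 84.6 and 81.7 CPM in TREAT and 91.2 and 99.4 CPM in Vehicle (-0.66, SE 0.17, adjusted p = 0.00838). Birc5, which encodes the passenger protein survivin, was at 92.3 and 102 CPM in TREAT and 106 and 105 CPM in Vehicle (-0.58, adjusted p = 0.0169). Neither Plk1 nor Birc5 was called over genes of at least 10 CPM, at -0.29 and -0.21 with adjusted p of 0.181 and 0.337. Aurka, the centrosomal Aurora kinase, and Cdca8, the passenger protein borealin, did not pass (adjusted p = 0.111 and 0.0713), and with library totals they were at 0.01 and 0.06. By CPM Aurka overlapped between the groups and Cdca8 was slightly higher in both TREAT areas.

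Among the 9 kinetochore and checkpoint genes, the histone variant of the centromere stood alone. Cenpa, which encodes that histone H3 variant, was at 311 and 336 CPM in TREAT and 546 and 471 CPM in Vehicle, well apart. Its change was -1.13 (SE 0.19, adjusted p = 0.000192), and -0.75 over genes of at least 10 CPM (adjusted p = 0.0117). Cenpf, a large protein of the outer kinetochore, showed the reverse order, at 122 and 81.7 CPM in TREAT and 55.0 and 56.8 CPM in Vehicle. The change of Cenpf was 0.40 (SE 0.20, adjusted p = 0.124), and 0.77 over genes of at least 10 CPM, where it was called (adjusted p = 0.0201). Bub1, a checkpoint kinase, was likewise called with that filter and with library totals, of the 18 settings tried. It had 47.4 and 43.5 CPM in TREAT and 29.97 and 27.9 CPM in Vehicle, with changes of 0.18 (adjusted p = 0.459) and 0.56 (adjusted p = 0.0321). Bub1b, the checkpoint protein BubR1, was at 46.8 and 35.4 CPM in TREAT and 30.02 and 23.7 CPM in Vehicle. Ttk, the kinase that recruits the checkpoint to kinetochores, was at 20.7 and 24.7 CPM in TREAT and 16.0 and 16.1 CPM in Vehicle. Cenpe, a kinetochore kinesin and the member with the fewest tumour UMIs (1314), was at 21.9 and 21.8 CPM in TREAT and 17.7 and 13.5 CPM in Vehicle. Bub1b, Ttk and Cenpe thus each lay higher in both TREAT areas by CPM, with changes of 0.13, 0.04 and 0.02 that did not pass (adjusted p = 0.640, 0.889 and 0.956). Ndc80, the microtubule-binding arm of the kinetochore, was at 66.6 and 61.3 CPM in TREAT and 66.2 and 59.9 CPM in Vehicle, with overlap (-0.45, adjusted p = 0.0629). Nuf2, the partner of Ndc80, and Mad2l1, the checkpoint inhibitor of CDC20, were at -0.06 and -0.46 (adjusted p = 0.826 and 0.0709). By CPM Nuf2 was higher in both TREAT areas and Mad2l1 overlapped.

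The anaphase-promoting complex supplied the gene with the largest change. Ube2c, the ubiquitin-conjugating enzyme that hands ubiquitin to this complex, was at 120 and 67.4 CPM in TREAT and 197 and 196 CPM in Vehicle. The 2 Vehicle areas were nearly equal and both TREAT areas lay well below them, TREAT 2+3 the furthest. The log2 change was -1.55 (SE 0.22, adjusted p = 6.12e-05), and -1.18 over genes of at least 10 CPM (adjusted p = 0.00699). By piece of tissue, Ube2c was at 119 CPM in TREAT 1+4 right (174 spots), 56.3 and 71.3 CPM in TREAT 2+3 left and right, 193 and 201 CPM in Vehicle 1+4 left and right, and 200.1 and 190 CPM in Vehicle 2+3 left and right. Cdc20, the activator of the complex at anaphase, was at 213 and 162 CPM in TREAT and 192 and 193 CPM in Vehicle. The groups overlapped for Cdc20 by CPM, although it was called under TMM over all genes (-0.51, SE 0.19, adjusted p = 0.0412), and over genes of at least 10 CPM it was not (-0.14, adjusted p = 0.566). Pttg1 overlapped as well (-0.37, adjusted p = 0.1003).

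Of the 8 spindle motors and microtubule-binding proteins, 0 were called under TMM over all genes. Nusap1, which binds and bundles spindle microtubules, was at 218 and 154 CPM in TREAT and 96.1 and 116 CPM in Vehicle (0.34, SE 0.19, adjusted p = 0.165). Kif11, the motor that pushes spindle poles apart, was at 82.0 and 65.3 CPM in TREAT and 45.6 and 46.7 CPM in Vehicle (0.20, SE 0.19, adjusted p = 0.396). These 2 genes were higher in both TREAT areas and were called over genes of at least 10 CPM, at 0.71 and 0.58 with adjusted p of 0.0241 and 0.0338. Aspm, a protein of the spindle poles, was at 68.0 and 57.9 CPM in TREAT and 45.0 and 43.7 CPM in Vehicle. Kif2c, which takes microtubule ends apart, was at 101 and 86.1 CPM in TREAT and 61.4 and 68.5 CPM in Vehicle. Aspm and Kif2c did not overlap between the groups by CPM. Their changes were 0.03 and 0.06, and of the 18 settings tried library totals alone called them. Kif20a was at 119 and 61.3 CPM in TREAT and 82.7 and 85.2 CPM in Vehicle, the 2 TREAT areas lying on either side of Vehicle (-0.38, SE 0.23, adjusted p = 0.204). Tpx2, which activates Aurora A on the spindle, Kif4, a chromosome-bound kinesin, and Ckap2 were at -0.29, -0.06 and -0.18, with adjusted p of 0.269, 0.842 and 0.441. By CPM Kif4 and Ckap2 were higher in both TREAT areas and Tpx2 overlapped.

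Genes of the central spindle and cytokinesis also split. Racgap1, the GTPase-activating part of the centralspindlin complex, was at 177 and 199 CPM in TREAT and 217 and 211 CPM in Vehicle (-0.65, SE 0.17, adjusted p = 0.00919), and it was not called over genes of at least 10 CPM (-0.27, adjusted p = 0.210). Prc1, which cross-links the central spindle, was at 157 and 134 CPM in TREAT and 91.3 and 97.2 CPM in Vehicle (0.16, SE 0.18, adjusted p = 0.485), and it was called over those genes (0.53, adjusted p = 0.0319). Kif23, the kinesin partner of RACGAP1, was at 53.8 and 53.1 CPM in TREAT and 46.4 and 48.4 CPM in Vehicle (-0.29, adjusted p = 0.202). Racgap1 was thus the one lower in both TREAT areas, whereas Prc1 and Kif23 were higher in both by CPM. Anln and Ect2, the activator of RhoA at the furrow, were at -0.30 and -0.03 (adjusted p = 0.252 and 0.904). By CPM Ect2 was also higher in both TREAT areas (69.0 and 57.2 CPM, against 50.2 and 42.6 CPM in Vehicle), and Anln overlapped.

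Both genes of chromosome structure were higher by CPM in both TREAT areas. Mki67 was at 453 and 317 CPM in TREAT and 223 CPM in both Vehicle areas. Top2a, the topoisomerase that untangles sister chromatids, was at 164 and 173 CPM in TREAT and 110 and 101 CPM in Vehicle. Their changes of 0.32 and 0.21 did not pass under TMM over all genes (adjusted p = 0.195 and 0.347), and those of 0.69 and 0.59 over genes of at least 10 CPM did (adjusted p = 0.0249 and 0.0201).

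**Figure D5:**
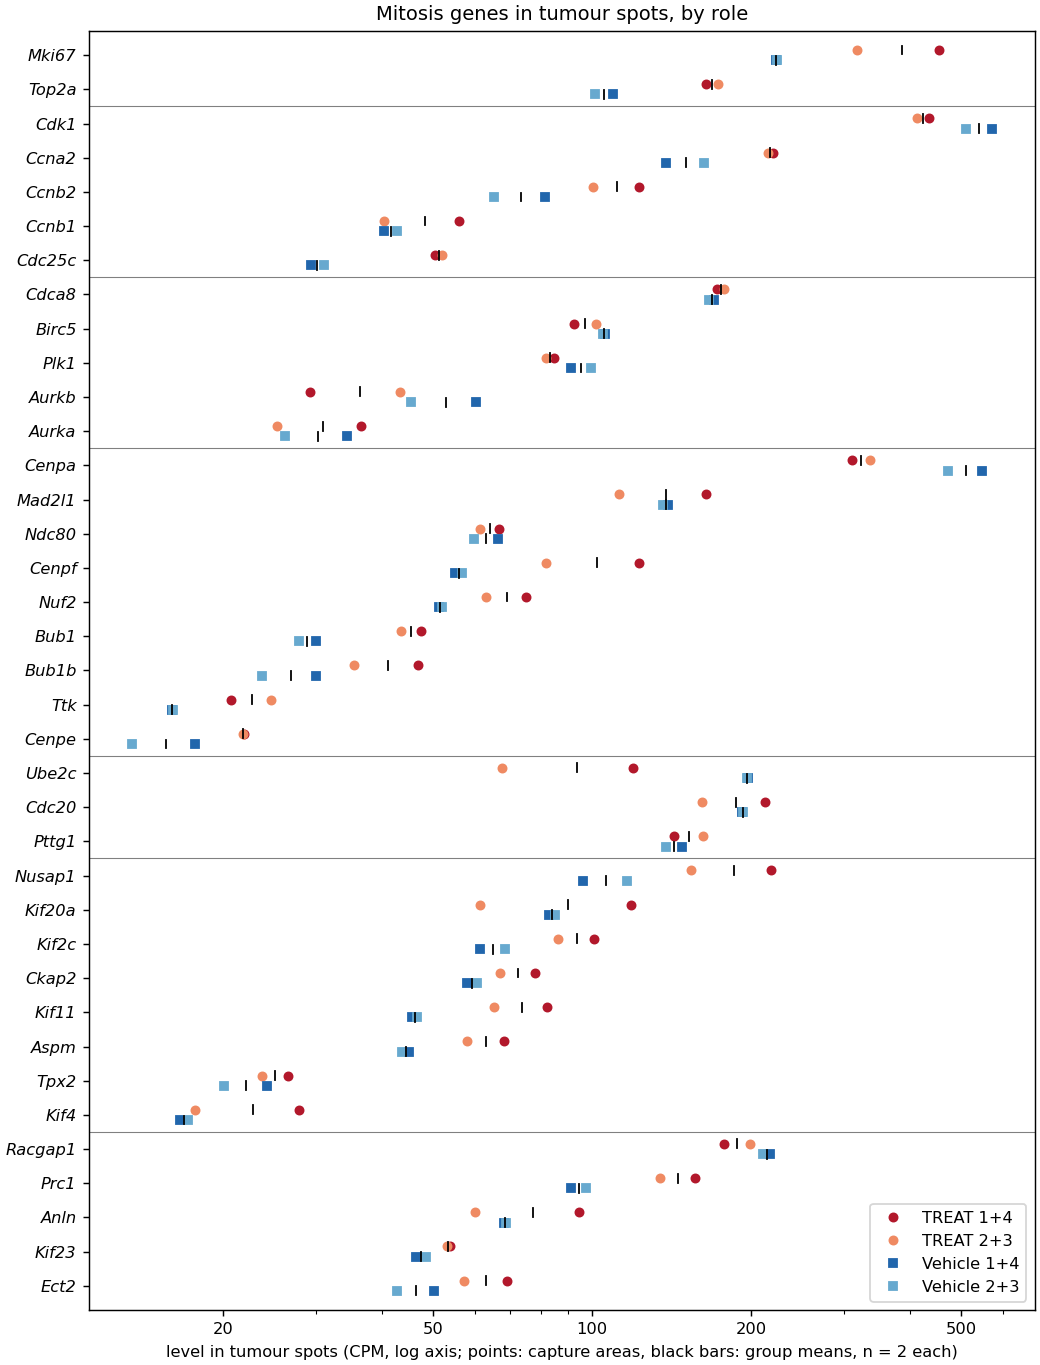
CPM of each of the 37 mitosis genes in tumour spots (log axis), grouped by role, with 1 point for each capture area (TREAT circles above Vehicle squares) and a bar at each group mean (n = 2). Mki67, Top2a and Cdc25c lie higher in both TREAT areas, while Cdk1, Cenpa and Ube2c lie lower in both.

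The make-up of the mitotic transcripts does not depend on the scaling. Ube2c gave 2.63% and 1.71% of all UMIs of mitosis genes in TREAT tumour, against 4.87% and 5.05% in Vehicle tumour. Cenpa gave 6.85% and 8.50% in TREAT, against 13.5% and 12.1% in Vehicle, and Cdk1 9.57% and 10.4% in TREAT, against 14.1% and 13.1% in Vehicle. Mki67 gave 9.99% and 8.04% in TREAT, against 5.51% and 5.74% in Vehicle. In all, 8 genes had a smaller share in both TREAT areas, 19 a larger one and 10 overlapped. By CPM, 27.5% of all genes of at least 10 CPM lay below and 41.8% above in both TREAT areas. The shares add up to a fixed total, so smaller shares of some genes make those of others larger. No matching share over all genes was computed, so these counts are descriptive. By role, the 3 genes of the anaphase-promoting complex and securin gave 10.47% and 9.92% in TREAT, against 13.3% and 13.6% in Vehicle. Chromosome structure gave 13.6% and 12.4% in TREAT, against 8.22% and 8.35% in Vehicle, and the spindle motors gave 15.9% and 13.5% in TREAT, against 10.6% and 11.8% in Vehicle. The difference in log2 change between Cenpf and Ube2c was 1.95 both under TMM and under library totals. Across the 37 genes the log2 change and the length of the gene on the chromosome had a Spearman rho of 0.55, beside 0.21 across 9701 genes of at least 10 CPM. These genes share libraries and are not independent, and the value is descriptive.

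Mitosis genes were also set against genes of DNA replication, which act earlier in the cycle. The ratio of mitosis to replication UMIs in tumour spots was 0.760 and 0.724 in TREAT, against 0.697 and 0.659 in Vehicle. The groups did not overlap, with means of 0.742 ± 0.025 in TREAT and 0.678 ± 0.026 in Vehicle (SD, n = 2 each). In brain spots the ratio was 0.415 and 0.445 in TREAT and 0.393 and 0.570 in Vehicle, with overlap. Of 52 replication genes, 19 were called lower and 1 higher in TREAT tumour under TMM over all genes, where 20.1% of all genes were lower and 12.5% higher. Over genes of at least 10 CPM, 10 of 50 were lower and 7 higher, against 14.1% and 11.3% of all genes. Mcm4, a subunit of the replicative helicase, was at 57.9 and 54.9 CPM in TREAT and 124 and 115.5 CPM in Vehicle (-1.56, adjusted p = 1.36e-05). Slbp, which binds histone mRNAs, Tyms, the thymidylate synthase, and Ticrr, which helps fire replication origins, were at -1.29, -1.24 and -1.34, with adjusted p of 4.9e-05, 9.44e-05 and 9.56e-05.

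Other genes that act in or upstream of mitosis also changed call with the scaling. Of 59 further mitosis genes tested, 16 were lower and 1 higher under TMM over all genes, against 20.1% and 12.5% of all genes. Over genes of at least 10 CPM the balance turned, with 2 of 54 lower and 12 higher, against 14.1% and 11.3% of all genes. Wee1, the kinase that holds CDK1 inactive, was at 52.8 and 84.7 CPM in TREAT and 174 and 161 CPM in Vehicle (-1.75, adjusted p = 1.36e-05), and it stayed lower over genes of at least 10 CPM (-1.36, adjusted p = 0.00404). Pkmyt1, the related kinase, was at 62.7 and 62.2 CPM in TREAT and 70.3 and 71.0 CPM in Vehicle (-0.65, adjusted p = 0.0107), and it was not called over genes of at least 10 CPM (-0.27, adjusted p = 0.217). By CPM the 2 kinases were lower in both TREAT areas, Wee1 by far the more. Cks2, a subunit of cyclin-dependent kinases, and Ncapd2, a condensin subunit, were at -1.02 and -0.75 (adjusted p = 0.000635 and 0.00467). Over genes of at least 10 CPM Cks2 stayed lower (-0.65, adjusted p = 0.0230) and Ncapd2 was not called (-0.37, adjusted p = 0.120). Of 23 regulators of mitotic gene transcription, 4 were lower and 2 higher under TMM over all genes, where 20.1% of all genes were lower and 12.5% higher. Over genes of at least 10 CPM 0 of 20 were lower and 3 higher, against 14.1% and 11.3% of all genes. Mybl2, which encodes B-MYB, was at 113 CPM in both TREAT areas and 130 and 138.2 CPM in Vehicle (-0.71, adjusted p = 0.00461), and Nfyc, a subunit of NF-Y, was at 71.6 and 61.8 CPM in TREAT and 26.1 and 37.5 CPM in Vehicle (0.60, adjusted p = 0.0268). E2f8, a repressor of the E2F family, was called higher (2.84, adjusted p = 0.00447) at 1.03 and 0.789 CPM in TREAT and 0.105 and 0.0667 CPM in Vehicle, and E2f3, an activator of that family, was at -0.58 (adjusted p = 0.0278). E2f8 was thus at a very low level. By CPM, the 3120 genes with a tumour mean of up to 1 CPM had a median log2 ratio of 1.20, TREAT over Vehicle. Over genes of at least 10 CPM, Nfyc stayed higher (0.97, adjusted p = 0.00900), Mybl2 and E2f3 were not called (-0.34 and -0.21, adjusted p = 0.114 and 0.385), and E2f8 was not tested.

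Of 9 cyclins and kinases that act before replication, 4 were lower and 0 higher under TMM over all genes (20.1% and 12.5% of all genes), and 1 was lower and 0 higher over genes of at least 10 CPM (14.1% and 11.3% of all genes). Ccnd1, which encodes cyclin D1, was at 906 and 889 CPM in TREAT and 1957 and 1866 CPM in Vehicle (-1.56, SE 0.19, adjusted p = 1.81e-05), and it was the one called over genes of at least 10 CPM (-1.18, adjusted p = 0.00352). Ccnd3, Cdk4 and Ccnd2 were at -0.78, -0.73 and -0.80, with adjusted p of 0.00265, 0.00742 and 0.0192. Over genes of at least 10 CPM these 3 were not called, at -0.40, -0.36 and -0.43 with adjusted p of 0.0704, 0.198 and 0.247. Of 8 inhibitors of cyclin-dependent kinases, 5 were lower and 0 higher, both under TMM over all genes (against 20.1% and 12.5% of all genes) and over genes of at least 10 CPM (against 14.1% and 11.3%). Cdkn1a, which encodes p21, was at 96.9 and 166 CPM in TREAT and 336 and 347 CPM in Vehicle (-1.84, SE 0.21, adjusted p = 1.33e-05). Cdkn2b, Cdkn1b and Cdkn2a were at -2.20, -0.98 and -0.90, with adjusted p of 6.39e-06, 0.0011 and 0.0011. Cell cycle activators and inhibitors were thus both found among the genes called lower.

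Markers of other cells that could divide in or beside the tumour were present in tumour spots of both groups. All 14 markers of T and NK cells had counts in every area, with a summed level of 177 to 194 CPM in TREAT and 179 to 223 CPM in Vehicle. All 13 macrophage markers were found, at 1446 to 1514 CPM in TREAT and 1545 to 1854 CPM in Vehicle. Endothelial markers (10 of 10) lay at 179 to 250.3 CPM in TREAT and 254 to 266 CPM in Vehicle, and neural progenitor markers (12 of 12) at 158 to 182 CPM in TREAT and 184 to 209 CPM in Vehicle. Microglia markers (7 of 7) summed to 215 to 233 CPM in TREAT and 202 to 220 CPM in Vehicle, and oligodendrocyte precursor markers (8 of 8) to 79.8 to 80.2 CPM in TREAT and 83.1 to 85.0 CPM in Vehicle. B and plasma cell markers (10 of 10) and neutrophil markers (7 of 7) summed to less, at 40.1 to 59.2 and 24.7 to 34.3 CPM in TREAT and 37.9 to 43.5 and 23.0 to 26.3 CPM in Vehicle. In the fit with TMM over all genes, 7 of 14 T and NK cell markers, 5 of 13 macrophage markers, 3 of 10 endothelial markers, 3 of 8 oligodendrocyte precursor markers and 1 of 10 B and plasma cell markers were called lower and 0 higher, while 0 of the microglia and neutrophil markers were called, and 3 of 12 neural progenitor markers were lower and 3 higher, where 20.1% of all genes were lower and 12.5% higher. The 36 tumour markers had 21 called lower, 0 higher and a median of -0.58 in that fit, and 4 lower, 1 higher and a median of -0.21 over the 33 of at least 10 CPM. With that filter, 1 of 8 T and NK cell, 2 of 10 macrophage and 1 of 7 endothelial markers were lower. So were 1 of 3 oligodendrocyte precursor and 1 of 3 neural progenitor markers. No marker of other cells was called higher there, where 14.1% of all genes were lower and 11.3% higher. Of the markers of other cells 0 were at 0 in any area, and their part in the mitotic levels was not tested.

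At the margin, taken as tumour spots that touch another class, the mitosis genes were about as high as in the interior. This margin is the edge of the tumour class. Spots 1 step outside it still held 4007 and 3239 CPM in TREAT and 3658 and 3378 CPM in Vehicle. In the margin spots the sum was 4636 and 3736 CPM in TREAT (43 and 70 spots) and 4104 and 3826 CPM in Vehicle (127 and 151 spots). In the interior it was 4503 and 3977 CPM in TREAT and 4035 and 3897 CPM in Vehicle, above the margin in TREAT 2+3 and Vehicle 2+3 and below it in the other 2 areas. With the area as a block, 1 gene was higher in the interior than at the margin and 0 lower, where 2.52% of all genes were higher and 2.41% lower. That gene was Anln, at 0.24 (SE 0.071, adjusted p = 0.0467), and Kif23 and Ect2 came next at 0.29 and 0.24 (adjusted p = 0.0557 and 0.0754). Anln was not called by DESeq2, over genes of at least 10 CPM or with spots at least 3 steps deep. The interior to margin change differed between TREAT and Vehicle for 0 of the mitosis genes (edgeR interaction test, 0.0332% of all genes with a negative and 0.0133% with a positive difference, 1078 genes at an unadjusted p under 0.05). At an unadjusted p under 0.05 the interaction picked Cenpe, Kif23 and Bub1, at -0.71, -0.41 and -0.43.

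Between TREAT and Vehicle margins, 2 mitosis genes were lower (5.41%, against 8.1% of all genes) and 1 higher (2.70%, against 3.2%). Ube2c was at 124 and 66.9 CPM in TREAT margins and 206 and 211 CPM in Vehicle margins (-1.31, SE 0.23, adjusted p = 0.00341). Cenpa was at 315 and 313 CPM in TREAT and 551 and 461 CPM in Vehicle (-0.84, SE 0.17, adjusted p = 0.00793). These are the same 2 genes that were lower under each scaling in the whole tumour, from spots that are part of it. Bub1 was at 63.5 and 44.7 CPM in TREAT margins and 26.8 and 27.7 CPM in Vehicle margins (0.81, SE 0.23, adjusted p = 0.0357). The count of higher genes and the size of the changes moved with single areas. The median log2 change was 0.11 with all areas, -0.01 without TREAT 1+4, 0.18 without Vehicle 1+4, 0.33 without TREAT 2+3 and 0.03 without Vehicle 2+3. All genes tested had medians of 0.0014 with all areas and from -0.0034 to 0.013 with 1 area left out. DESeq2 called 0 higher (62 of all 8878 genes), and with tumour spots set by marker ratio 0 were lower (198 of all 12612 genes).

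In brain spots, 0 of 37 mitosis genes and 0 of 19604 genes passed between TREAT and Vehicle by edgeR (0.0% of all genes in either direction), with 5 mitosis genes and 3389 genes at an unadjusted p under 0.05. DESeq2, which gave an adjusted p for 17 of the 37, called 1 lower, against 297 of all 12112 genes. The median change of the mitosis genes was -0.63, beside -0.0048 for all genes, and 1 of 37 lay above 0. This rested on Vehicle 2+3: without it the median was 0.11 and 24 of 37 lay above 0. Cdk1, for example, was at 11.8 and 17.99 CPM in TREAT brain and 12.5 and 47.2 CPM in Vehicle brain. Cenpa was at 10.7 and 14.9 CPM in TREAT and 16.4 and 44.8 CPM in Vehicle. For both genes Vehicle 2+3 stood apart and the other 3 areas were close. Brain spots here include border and immunoglobulin cluster spots that lie more than 2 steps from the tumour class. Without those clusters the sum was 187 and 241 CPM in TREAT and 207 and 362 CPM in Vehicle, and 0 of 37 were called. Cluster 17, with 25 of 36 tumour markers raised and 1226 CPM of mitosis genes over all its spots, was not taken out there. It held 21 and 0 spots in TREAT and 43 and 142 spots in Vehicle, and how many were brain spots was not counted.

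Over the whole tissue the mitosis genes were lower in TREAT, where tumour spots were also fewer. The sum was 880 and 1879 CPM in TREAT and 2580 and 2933 CPM in Vehicle. All 37 changes lay below 0, with a median of -1.10 beside 0.13 for all genes, and 8 were called lower (21.6%, against 5.67% of all genes) and 0 higher (against 1.11%). The 8 were Ube2c (-2.60, SE 0.27, adjusted p = 0.0242), Cenpa, Cdk1, Kif20a, Plk1, Cdc20, Aurka and Mad2l1. Ube2c was at 24.0 and 32.7 CPM in TREAT and 125 and 147 CPM in Vehicle, far apart. Mki67 was at 71.2 and 146 CPM in TREAT and 139 and 166 CPM in Vehicle, and TREAT 2+3 lay within the Vehicle range. By CPM, 26 of 37 genes were lower in both TREAT areas than in either Vehicle area (70.3%, against 20% of all genes). The count of calls, of the mitosis genes and of all genes, rested on single areas, and the size of the change moved with them. The median was -1.84 without TREAT 2+3, -0.67 without TREAT 1+4, -1.23 without Vehicle 1+4 and -1.09 without Vehicle 2+3. Beside these, all genes had medians of 0.09, 0.09, 0.10 and 0.01. DESeq2 called 24 lower (against 19.6% of all genes), and over genes of at least 10 CPM 0 of 34 were called, as were 0 genes of all. Tumour spots carried 54.0% and 84.1% of the UMIs of mitosis genes in TREAT, against 88.5% and 87.3% in Vehicle, and with tumour spots set by marker ratio 78.7% and 90.4% in TREAT, against 96.3% and 95.8% in Vehicle. The share of tumour spots in a section and the extent of the tumour in the animal cannot be told apart.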

How the data were processed

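Probe-based spatial libraries of 4 capture areas (2 TREAT, 2 Vehicle) were analysed. The authors deposited raw UMI counts for each gene in each spot, and per the submitters' processing notes Space Ranger 2.1.1, build mm10, R 4.4.1 and Seurat were used. Spot positions and the mark of spots over tissue came with the deposited files. Of 32589 features, 304 with deprecated identifiers were left out.

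Kept spots (over tissue, at least 500 UMIs) were scaled to 10000, and 2000 variable genes, 30 principal components and 15 neighbours were used for Leiden clustering at resolution 0.6 (scanpy 1.11.5, leidenalg 0.10.2), with 428 cell cycle and histone genes left out. Some of those were added after one led a cluster. Doublets were not called, as 1 spot covers several cells. Tumour clusters had more tumour than neuron and oligodendrocyte marker CPM, at least 0.5 of the tumour markers above 2 times their median over clusters, and no other class with more of its markers than the tumour among the 10 top genes. Distance was counted in hexagonal grid steps.

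Counts were summed per area and region and tested with edgeR 4.0.16 (quasi-likelihood, TMM, filterByExpr, R 4.3.3) with Benjamini-Hochberg adjustment over all genes tested and a threshold of 0.05. The fits were tested on simulated data. Those data held no shift of weak genes between the groups, so the check does not bear on the choice of scaling. Alternatives were DESeq2 1.42.0, library totals, other filters, other definitions of tumour spots, thinning to 5000 UMIs, a block for the numbers in the labels, and each area left out in turn. Intervals were not computed for summed counts, and precision is given by the spread of areas.

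The members, gene lists and tests were chosen with earlier results of these data known. Values are given for all members by role: in every area for the 2 with the smallest p in each role, for the members with the most and the fewest UMIs and for those above 0 in the tumour comparison, and up to 4 genes of each pathway list by p. Values of Birc5, Mki67 in brain, Bub1 at the margin and other values beyond that rule were chosen after they were seen.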

Additional observations from a re-analysis of the deposited data

Results flagged for a closer look

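Spots outside the tissue, which no comparison used, held UMIs of the mitosis genes. Their summed level there was 734.4 CPM in TREAT 1+4 (1640 spots) and 1285 CPM in TREAT 2+3 (1979 spots), against 1747 CPM in Vehicle 1+4 (1787 spots) and 2005 CPM in Vehicle 2+3 (1504 spots). These values were above those of brain spots in each area, which were 234 and 261 CPM in TREAT and 215 and 476 CPM in Vehicle. Over the whole tissue the sum was 880 and 1879 CPM in TREAT and 2580 and 2933 CPM in Vehicle.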

How the results depend on the processing

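Counts of mitosis genes called depended on the setting. In tumour spots, 8 lower and 0 higher under TMM over all genes became 3 and 14 with library totals, 2 and 8 over genes of at least 10 CPM, and 3 and 2 after thinning to 5000 UMIs. Leaving out 1 area in turn gave 2 to 11 lower and 0 to 3 higher. The number of calls over all genes moved in those tumour fits too, so this range is not particular to the mitosis genes. The median log2 change of the mitosis genes there ran from -0.23 to 0.02, beside 0.02 to 0.10 for all genes. Over the whole tissue, 8 lower became 24 by DESeq2 and 0 over genes of at least 10 CPM. With 1 area left out, the median log2 change there ran from -1.84 to -0.67. At the margin, 2 lower became 4 with no filter on low genes (1951 of all 20281 genes) and 0 with tumour spots set by marker ratio (198 of 12612). There 1 higher became 0 by DESeq2 (62 of 8878), 8 with library totals (964 of 12552) and 2 over genes of at least 10 CPM (462 of 9967). With 1 area left out, the median log2 change at the margin ran from -0.01 to 0.33. In brain spots, 0 lower became 1 by DESeq2 (297 of 12112). With 1 area left out, the median log2 change in brain ran from -1.18 to 0.11. For interior over margin, 1 higher became 0 by DESeq2, over genes of at least 10 CPM and at least 3 steps deep, and 0 to 1 with 1 area left out. With fewer areas or fewer genes a setting tests less, and beyond that the cause was not tested. No named gene turned round with both values called.

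Deviations of same-numbered areas from their group means correlated at -0.16 in tumour and 0.48 over the whole tissue, and the labels do not say what a number marks, so the numbers were not taken to pair samples. With the numbers as a replicate block, 9 were lower and 0 higher in tumour (3975 and 3343 of all 19658 genes). With the same block 37 were lower over the whole tissue (21.5% of all genes), and 3 were higher at the margin (565 of all 12552 genes). With the numbers crossed, 9 were lower and 0 higher in tumour (4233 and 1789 of all 19658 genes). With 2 areas a group, and with 1 left where an area was left out, the lone area is assumed to vary like the other group. Depth limits the margin (43 to 151 spots) and brain, where most mitosis genes were under 10 CPM.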
